A study of Mus musculus with 28 samples.

Results

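CD8 T cells that had been stimulated for 2 days in culture and then rested for 3 days without antigen were compared with CD8 T cells that had never been stimulated. The comparison rests on 6 of the 28 arrays of the series, chosen by their sample titles: 3 arrays of transiently stimulated cells and 3 arrays of unstimulated cells, both taken on day 5. All cells of both groups were CD8+ T lymphocytes of OT1 T cell receptor transgenic mice on the C57BL/6N background, so that nearly all of them carry one receptor for an ovalbumin peptide. The transient group was cultured for 2 days on plates coated with anti-CD3 and anti-CD28 antibodies (10 µg/ml), and the unstimulated group on uncoated plates, with 5 ng/ml of the survival cytokine IL7 in both. Both were then transferred for 3 days into hosts without the antigen, sorted again from spleen and subcutaneous lymph nodes, and their RNA was amplified before hybridisation to Affymetrix Mouse 430A2 arrays. Other arrays of the series served as comparison: CD8 cells kept for the same 3 days in hosts that express their antigen (continuous stimulation, 3 arrays), CD4+ cells of AND receptor transgenic mice after the same transient treatment or without it (2 arrays each), and CD8 cells taken directly after 2 days of culture with or without the antibodies (3 arrays each). Replicates were described as independent biological samples. The age and sex of the mice are not given in the sources used here, and a transgenic receptor triggered by antibodies is a model of activation without an infection.

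A CD8 T cell that meets its antigen divides, arms itself with granzymes and cytokines and changes its receptors for chemokines. When the antigen is gone most of these cells die, while some persist as memory cells, which have left the cell cycle but keep part of the effector programme in readiness. The T-box factors T-bet (gene Tbx21) and Eomes are central regulators of this choice, and receptors shared with natural killer cells, the chemokine receptor Cxcr3 and the beta chain of the IL2 and IL15 receptor (Il2rb) are well-known features of antigen-experienced CD8 cells.

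Signals are log2 values per probe set as normalised by the authors, and 12393 genes were measured, each through 1 probe set. The sorted cells carried the genes of their label: the means of the 3 CD8 markers (Cd8a, Cd8b1 and Runx3) lay between 10.56 and 10.65 in transient arrays and between 10.14 and 10.37 in unstimulated arrays. Replicate 1 of each group also carried genes of other blood cells. Over 12 myeloid markers the mean signal was 7.13, 5.01 and 6.00 in transient replicates 1, 2 and 3, against 9.25, 4.98 and 6.05 in unstimulated replicates 1, 2 and 3, and the neutrophil gene S100a8 reached 12.43 in unstimulated replicate 1, against at most 5.43 in the other 2 unstimulated arrays. Over 9 B cell markers the mean was 6.04, 5.39 and 5.65 in transient arrays, against 7.28, 5.31 and 5.88 in unstimulated arrays. None of the 12 myeloid, 9 B cell, 4 plasma cell, 5 dendritic cell or 5 NK cell markers measured passed the test between the groups. Of 6 regulatory T cell markers Foxp3 (0.72) and Ctla4 (3.94) were higher in transient cells, and the other 4 were not called. The median change of the 6 was 0.29, and the Foxp3 probe set was dim (mean 4.81 over all arrays). The mean of the 6, which includes the large Ctla4 rise, lay between 6.36 and 6.54 in transient arrays. In unstimulated arrays it lay between 5.49 and 5.70. Of the CD4 helper markers Zbtb7b was higher (0.49), of the red cell markers Hba-a1 was lower (-0.36), and of the platelet markers Itga2b was lower (-0.76); without replicate 1 of both groups these last 3 were not called (adjusted p = 0.0603, 0.305 and 0.306), nor were Hba-a1 and Itga2b with the replicate block (adjusted p = 0.201 and 0.107). Foxp3 was not called when unstimulated replicate 2 or 3 or transient replicate 3 was left out. Among the CD4 arrays used below, transient replicate 2 stood apart in myeloid markers, with means of 6.62 and 9.25 in the 2 transient arrays, against 7.77 and 5.63 in the 2 unstimulated arrays, and in NK markers, with 5.70 and 7.53 against 6.05 and 5.27.

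The groups also differed in a control of RNA and amplification quality. The arrays carry probe sets for the 3' and the 5' end of beta-actin, and a larger 3' minus 5' difference means that less of the 5' end was captured. This difference was 0.73, 1.02 and 0.66 in the transient arrays, against 2.44, 2.24 and 1.92 in the unstimulated arrays, without overlap. The same difference for Gapdh was between 1.83 and 2.00 in transient arrays and between 3.14 and 3.50 in unstimulated arrays. In CD4 cells both differences ran the other way: beta-actin gave 2.73 and 2.42 in transient arrays, against 0.67 and 0.98 in unstimulated arrays. Stimulation history and this measure cannot be told apart within CD8 cells alone, so values from CD4 cells and from a fit with the beta-actin difference as a covariate are given beside the results.

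**Figure D1:**
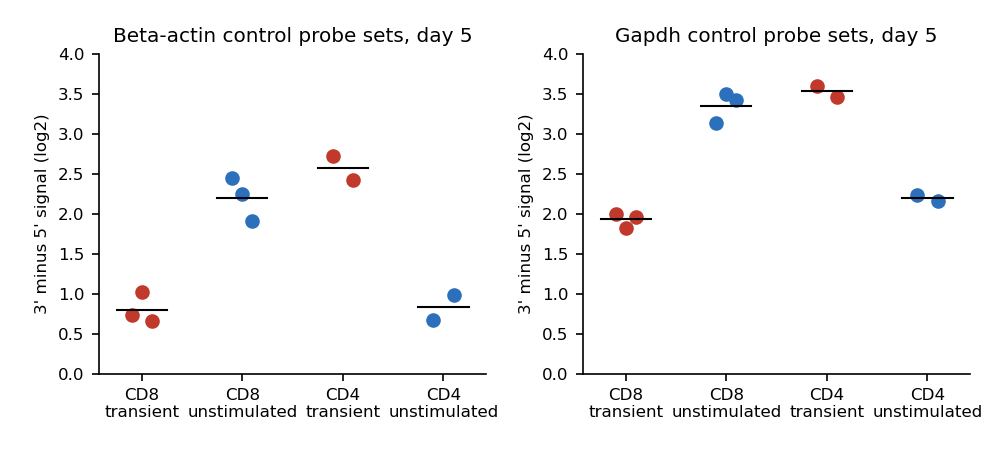
The 3' minus 5' signal (log2) of the beta-actin (left) and Gapdh (right) control probe sets in each day 5 array, with the mean of each group as a bar. In CD8 cells the transient arrays lie below the unstimulated arrays, and in CD4 cells they lie above them.

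Rested CD8 cells differed widely from unstimulated ones. A limma fit over the 16 day 5 arrays, with p values adjusted over 12393 genes by Benjamini and Hochberg and a threshold of 0.05, called 2020 genes higher (16.3%) and 1917 lower (15.5%) in transient cells. The change was at least 2-fold for 707 of the higher and 353 of the lower genes, and at least 8-fold for 9 and 2. The median change of all genes was -0.08 log2. In sorted bulk cells a lower signal can mean fewer cells of a kind or less RNA per cell, which cannot be told apart here. Of the 3937 called genes, 3792 had no overlap between the 3 transient and the 3 unstimulated arrays, a state found in 43.17% of all genes. Without replicate 1 of both groups 1566 genes were called higher and 1321 lower, of which 1505 and 1200 were called the same way with all arrays. With the beta-actin difference as a covariate, 108 genes (0.871%) were called higher and 48 (0.387%) lower, of which 103 and 46 had been called the same way without it and 0 the opposite way. The median standard error of a change was 0.43 with the covariate and 0.15 without it, and 89.5% of the called genes kept their sign. Of the called genes, 1805 had more than 1 probe set; another one was called the same way for 618 and the opposite way for 303. With the Gapdh difference as the covariate limma called 0 genes, 1480 genes had an unadjusted p under 0.05, and the median standard error was 0.64.

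**Figure D2:**
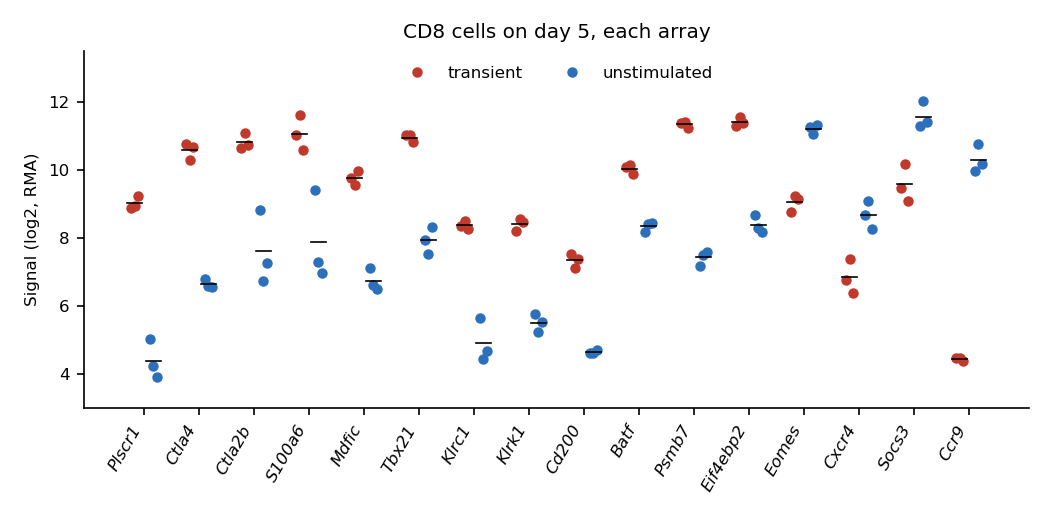
Signal (log2) of 16 named genes in each transient (left of each pair) and unstimulated (right of each pair) CD8 array on day 5, with group means as bars. The 3 arrays of one group do not overlap with the 3 of the other for any of the 16 genes. Such separation was required when the largest rises and falls were named, and 43.17% of all genes had it.

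The largest rises included genes that were also called higher in CD4 cells, where the quality measure had moved in the opposite direction. Plscr1, an interferon-induced phospholipid scramblase of the plasma membrane, had 8.88, 8.94 and 9.25 in transient arrays, against 5.04, 4.24 and 3.91 in unstimulated arrays (log2 change 4.63 ± 0.29 SE, adjusted p = 2.62e-07 by limma). Ctla4, the inhibitory receptor that competes with CD28 for its ligands, had 10.76, 10.31 and 10.68 in transient arrays, against 6.79, 6.59 and 6.56 in unstimulated arrays (3.94 ± 0.31, adjusted p = 1.44e-06). In both genes every transient array lay more than 3 log2 units above every unstimulated one. The unstimulated Plscr1 signal lay below the median of all probe sets. Tbx21, which encodes T-bet, had 11.02, 11.02 and 10.82 in transient arrays, against 7.94, 7.52 and 8.32 in unstimulated arrays (3.02 ± 0.35, adjusted p = 3.05e-05). Ctla2b, a cysteine protease inhibitor of activated lymphocytes, had 10.64, 11.08 and 10.75 in transient arrays, against 8.83, 6.73 and 7.26 in unstimulated arrays (3.22 ± 0.41, adjusted p = 5.55e-05). For the calcium-binding protein S100a6 the values were 11.02, 11.61 and 10.58 in transient arrays and 9.41, 7.30 and 6.97 in unstimulated arrays (3.18 ± 0.53, adjusted p = 0.000509). Unstimulated replicate 1, the array with myeloid genes, was the highest unstimulated array for both, and without replicate 1 of both groups their changes were 3.92 and 3.96. Mdfic, a regulator of transcription factors, rose by 3.03 ± 0.19, and the Ctla2b relative Ctla2a by 2.91 ± 0.40. In CD4 cells the changes of these 7 genes were 2.49 (Plscr1), 3.45 (Ctla4), 2.27 (Tbx21), 4.63 (Ctla2b), 2.67 (S100a6), 2.76 (Mdfic) and 3.91 (Ctla2a), all called. With the beta-actin covariate Plscr1 (5.27), Ctla4 (4.61) and Mdfic (3.63) were still called, whereas Tbx21 (1.45, adjusted p = 0.538), S100a6 (4.53, 0.190), Ctla2a (4.01, 0.125) and Ctla2b (4.99, 0.0550) were not.

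The 250 bases before the annotated start (RefSeq, GRCm38.p6) are shown for 4 rises and for the largest fall, Ccr9. The 4 are the largest rises among genes called higher in both cell types. Capitals mark matches on either strand to 4 motifs: AGGTGT (T-box factors), TGANTCA (AP-1), TGTGGT (Runx factors) and TTCNNNGAA (Stat factors).
Plscr1, chr9:92249944-92250193, plus strand: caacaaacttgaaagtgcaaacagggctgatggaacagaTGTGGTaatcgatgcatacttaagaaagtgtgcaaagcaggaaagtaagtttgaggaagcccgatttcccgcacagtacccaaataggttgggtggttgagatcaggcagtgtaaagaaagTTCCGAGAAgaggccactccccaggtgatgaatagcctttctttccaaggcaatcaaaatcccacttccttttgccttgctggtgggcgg
Ctla4, chr1:60908775-60909024, plus strand: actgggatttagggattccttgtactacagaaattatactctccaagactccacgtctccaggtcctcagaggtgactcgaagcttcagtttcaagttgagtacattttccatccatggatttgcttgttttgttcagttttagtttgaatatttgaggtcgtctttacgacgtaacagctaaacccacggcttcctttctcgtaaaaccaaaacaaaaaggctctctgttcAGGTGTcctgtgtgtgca
Ctla2b, chr13:60897448-60897697, minus strand: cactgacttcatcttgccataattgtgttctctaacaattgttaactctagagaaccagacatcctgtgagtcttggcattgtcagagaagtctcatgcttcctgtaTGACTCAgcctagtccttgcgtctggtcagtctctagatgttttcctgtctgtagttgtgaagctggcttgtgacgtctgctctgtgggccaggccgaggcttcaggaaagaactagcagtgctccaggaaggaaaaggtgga
S100a6, chr3:90612644-90612893, plus strand: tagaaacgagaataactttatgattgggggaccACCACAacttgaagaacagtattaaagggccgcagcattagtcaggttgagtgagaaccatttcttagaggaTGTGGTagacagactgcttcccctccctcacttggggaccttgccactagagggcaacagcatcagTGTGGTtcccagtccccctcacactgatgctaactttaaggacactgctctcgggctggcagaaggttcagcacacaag
Ccr9, chr9:123766961-123767210, plus strand: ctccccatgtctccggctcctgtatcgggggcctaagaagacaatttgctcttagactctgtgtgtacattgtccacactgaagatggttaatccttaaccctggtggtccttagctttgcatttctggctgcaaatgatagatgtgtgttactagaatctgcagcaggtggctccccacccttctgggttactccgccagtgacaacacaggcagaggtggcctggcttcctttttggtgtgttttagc
The Plscr1 window held 1 Runx match 211 bases and 1 Stat match 90 bases before the start, counted to the first base of the match. The Ctla4 window held 1 T-box match at 18 bases, the Ctla2b window 1 AP-1 match at 143 bases and the S100a6 window 3 Runx matches. In the Ccr9 window none of the 4 letter patterns occurred. Among all 9887 measured genes with a listed promoter, 10.5% of windows held the T-box pattern, 5.51% the AP-1 pattern, 11.3% the Runx pattern and 6.05% the Stat pattern. Among the 53 such genes called higher in both cell types the shares were 7.55%, 13.2%, 17.0% and 11.3%, and among the 1672 called higher in CD8 cells 9.03%, 3.89%, 11.4% and 5.62%. These are counts of letters, and no test was made of them.

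Other rises were called in CD8 cells with no call in CD4 cells. Klrc1 (NKG2A), an inhibitory receptor shared with natural killer cells, had 8.36, 8.50 and 8.27 in transient arrays, against 5.66, 4.43 and 4.68 in unstimulated arrays (3.45 ± 0.32, adjusted p = 4.35e-06). Its second, dimmer probe set was higher by 0.38. Klrk1 (NKG2D), an activating receptor of the same family, had 8.21, 8.56 and 8.47 in transient arrays, against 5.75, 5.23 and 5.53 in unstimulated arrays (2.91 ± 0.17, adjusted p = 1.51e-07). Over 5 measured NK cell markers the mean was 6.80, 5.71 and 6.75 in transient replicates 1, 2 and 3. In unstimulated replicates 1, 2 and 3 it was 7.40, 5.40 and 6.41, replicate 1 being the array with myeloid genes. None of the 5 was called, and 1 was higher with the replicate number as a block, where 1753 of all 12393 genes were. Cd200, a ligand of an inhibitory receptor, had 7.53, 7.12 and 7.39 in transient arrays, against 4.62, 4.62 and 4.71 in unstimulated arrays (2.69 ± 0.27, adjusted p = 9.85e-06). The unstimulated signals of Klrc1, Klrk1 and Cd200 lay below the median of all probe sets (6.33 to 6.39), and no detection calls were used. The AP-1 partner Batf rose by 1.69 ± 0.18, the transcription factor Gata3 by 1.71 ± 0.23 and the cytokine receptor chain Il2rb by 1.63 ± 0.34. The change in CD8 cells exceeded that in CD4 cells by 3.17 for Klrc1, 3.28 for Klrk1, 3.27 for Cd200, 1.74 for Batf and 2.17 for Gata3, each called in the test of the difference itself (adjusted p = 0.000239, 8.45e-07, 5.47e-05, 0.000350 and 0.000435 by limma). For Il2rb the difference of 1.06 was not called (adjusted p = 0.137). With the beta-actin covariate Klrk1 was still called (3.03, adjusted p = 0.0199), while Klrc1 (3.77, 0.0800), Cd200 (2.83, 0.126), Batf (1.59, 0.192), Gata3 (0.46, 0.801) and Il2rb (2.66, 0.217) were not.

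Another set of large rises fell in CD4 cells, where the transient arrays were those with the larger 3' minus 5' difference. Psmb7, a catalytic subunit of the proteasome, had 11.38, 11.40 and 11.24 in transient arrays, against 7.18, 7.51 and 7.60 in unstimulated arrays (3.91 ± 0.17, adjusted p = 3.58e-08), and its change in CD4 cells was -3.97. Eif4ebp2, a repressor of translation initiation, had 11.30, 11.57 and 11.40 in transient arrays, against 8.69, 8.31 and 8.17 in unstimulated arrays (3.04 ± 0.14, adjusted p = 3.58e-08), with -2.02 in CD4 cells. The spliceosome component Cwc15 (3.00 against -2.41), the transcription repressor Nfx1 (2.83 against -2.74), Plekhj1 (2.83 against -2.76) and the proteasome ATPase subunit Psmc5 (2.80 against -3.30) had the same form. The other 2 probe sets of Nfx1 changed by 0.47 and -0.17, and of the 4 others of Eif4ebp2 1 was called (1.40). With the covariate Psmb7 (2.90), Eif4ebp2 (3.80), Cwc15 (3.79) and Nfx1 (3.34) were still called, and Plekhj1 (1.69, adjusted p = 0.183) and Psmc5 (1.78, 0.192) were not. Of the 15 largest rises, 7 were called higher, 6 lower and 2 not at all in CD4 cells. Among all genes higher in CD8 cells 3.17% were called higher and 55.0% lower in CD4 cells.

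Across all genes the changes of the 2 cell types ran mostly in opposite directions. The CD8 and CD4 comparisons share no arrays, and the correlation of their changes over 12393 genes was -0.52 (Pearson, a description across genes, which are not independent). Of the 2020 genes higher in CD8 cells, 64 (3.17%) were also higher in CD4 cells and 1111 (55.0%) were lower, where the background of the CD4 comparison was 9.66% higher and 13.1% lower. The 64 are 5.35% of the CD4 rises and the 1111 are 68.4% of the CD4 falls. Of the 1917 genes lower in CD8 cells, 45 (2.35%) were also lower in CD4 cells and 604 (31.5%) were higher, and these are 2.77% of the CD4 falls and 50.5% of the CD4 rises. The beta-actin and Gapdh differences moved in opposite directions with the same groups, and their part in this pattern was not tested. Without the first CD4 unstimulated array 71 genes, and without the second 69, were called the same way in both cell types, against 109 with all arrays, and without the first 1123 were called opposite ways, against 1715.

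**Figure D3:**
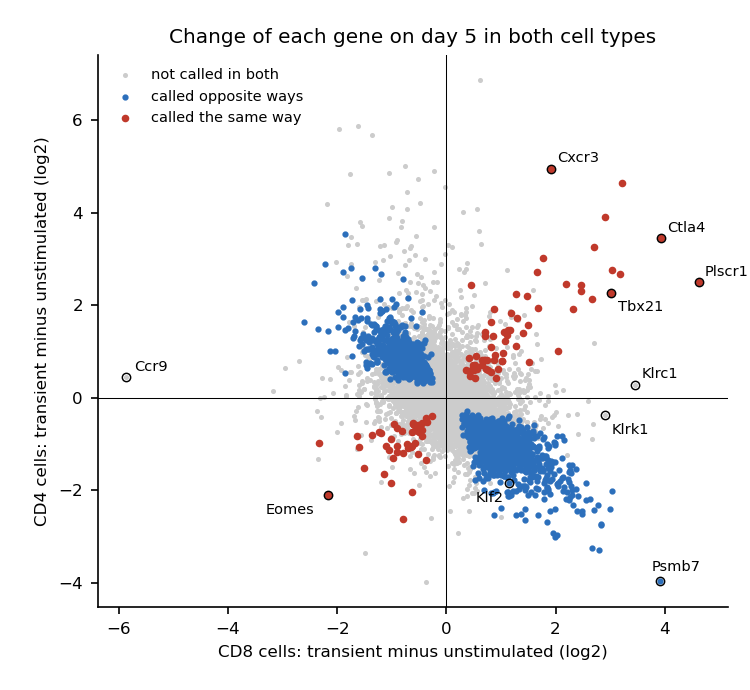
Change from unstimulated to transient (log2) of 12393 genes in CD8 cells (x axis) and CD4 cells (y axis) on day 5. Red points (109 genes) were called the same way in both, blue points (1715 genes) opposite ways and grey points not in both. Plscr1, Ctla4, Tbx21 and Cxcr3 lie in the upper right, Psmb7 in the lower right and Ccr9 far left near the horizontal line.

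The 64 genes higher in both cell types also included Cxcr3 and Ccl5. Cxcr3, the receptor for the interferon-induced chemokines Cxcl9 and Cxcl10, had 13.11, 13.30 and 13.29 in transient arrays, against 11.65, 10.66 and 11.66 in unstimulated arrays (1.91 ± 0.26, adjusted p = 9.67e-05), and changed by 4.95 in CD4 cells. Ccl5, a chemokine that memory CD8 cells store as RNA, had 12.41, 12.86 and 12.37 in transient arrays, against 11.19, 10.00 and 11.39 in unstimulated arrays (1.69 ± 0.39, adjusted p = 0.00453; CD4 change 1.93). Both were already high in unstimulated CD8 cells. Anxa2 (2.47), the serpin Serpinb6b (1.47), the homeodomain protein Hopx (1.08), Lgals1 (0.88) and Stat4, the transducer of IL12 signals (0.69), were higher in both cell types as well. With the beta-actin covariate Serpinb6b was still called (2.52, adjusted p = 0.0482), and Cxcr3 (2.02, 0.244) and Ccl5 (1.39, 0.650) were not. Of the 64 genes, 30 changed at least 2-fold in both, and 57 were also called with the replicate number as a block. Of all 2020 genes higher in CD8 cells 1669 were also called higher with that block.

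The largest fall was that of Ccr9, the receptor for the chemokine Ccl25 that guides cells to the small intestine and thymus. It had 4.48, 4.47 and 4.37 in transient arrays, against 9.97, 10.77 and 10.17 in unstimulated arrays (-5.87 ± 0.40, adjusted p = 5.10e-07). The transient signal was as low as in the CD4 arrays and lay below the median of all probe sets, and no detection calls were used here, so the size of the difference is not given as a fold. In the same arrays the other 2 Ccr9 probe sets were lower in transient cells too, by -2.22 and -1.10. In CD4 cells Ccr9 was low in both groups (5.08 transient, 4.64 unstimulated), and the change in CD8 cells was lower by -6.31 ± 0.64 than that in CD4 cells (adjusted p = 5.23e-06). With the beta-actin covariate the change was -6.12 (adjusted p = 0.0375).

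Eomes, the T-box factor paired with T-bet, fell in both cell types. It had 8.76, 9.23 and 9.16 in transient arrays, against 11.27, 11.06 and 11.31 in unstimulated arrays (-2.17 ± 0.28, adjusted p = 7.19e-05), and its change in CD4 cells was -2.11. The second Eomes probe set was lower in CD8 cells by -0.99. Tbx21 and Eomes thus moved in opposite directions in both cell types. With the covariate the Eomes change was -0.62 (adjusted p = 0.767). Other chemokine and cytokine signalling genes fell in CD8 cells: Cxcr4, the receptor for Cxcl12 (-1.83 ± 0.32), Socs3, a feedback inhibitor of cytokine receptors (-1.99 ± 0.38, with -0.89 and -0.42 and no call in its other 2 probe sets), and Il18r1, a chain of the IL18 receptor (-1.60 ± 0.41). None of these 3 was called in CD4 cells, where the changes were 0.89, 0.67 and 0.11. Without replicate 1 of both groups Il18r1 was not called (-1.42, adjusted p = 0.0783). The other chain of the IL18 receptor, Il18rap, rose by 1.36 ± 0.34, and its change with the covariate was -0.07 (adjusted p = 0.988).

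Among the remaining large falls were Adgrg3 (-3.18 ± 0.36), Cxxc5 (-2.96 ± 0.39), the cell cycle regulator Rgcc (-2.70 ± 0.35), the checkpoint kinase Chek1 (-2.61 ± 0.45), the syntaxin Stx1a (-2.36 ± 0.17), the actin-binding protein Cnn3 (-2.34 ± 0.18) and the DNA repair enzyme Ung (-2.29 ± 0.17). The second Rgcc probe set changed by -0.82 (adjusted p = 0.111), and the other 3 of Chek1 by -0.71, -0.59 and -0.10, of which -0.59 was called. All other Cnn3 probe sets were called lower too, with changes from -0.77 to -4.56. Of the 15 largest falls 4 were higher and 2 lower in CD4 cells, and 9 had no call there. Among all genes lower in CD8 cells 31.5% were higher and 2.35% lower in CD4 cells. Stx1a (-3.15) and Ung (-2.88) were still called with the covariate, 2 of the 4 among the 15 that were. Chek1 and Ung, both tied to DNA replication, had 8.89 and 11.36 in continuously stimulated CD8 cells, above the transient means, which lay 3.95 and 2.56 lower.

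The gene lists below draw on general T cell biology, but they were selected after earlier results of these data had been seen. They are therefore not independent of the data, and the background of 16.3% higher and 15.5% lower is given for description only. With the beta-actin covariate each of these lists had at most 1 gene called in either direction. Of 14 granule and killing genes 4 were higher and 0 lower. The 4 were Ctsw (0.87), Serpinb6b (1.47), Srgn, the granule proteoglycan core (0.57), and Nkg7 (0.46), the last of which was not called without replicate 1 of both groups (adjusted p = 0.0725), nor without unstimulated replicate 2, transient replicate 2 or transient replicate 3. The granzymes were not among them. Gzmb had 7.71, 7.51 and 8.76 in transient arrays, against 6.84, 6.20 and 7.12 in unstimulated arrays (1.27 ± 0.69, adjusted p = 0.184), although the groups did not overlap and the fit with the replicate number as a block called it (adjusted p = 0.00349). Gzma had 9.41, 9.45 and 11.59 in transient arrays, against 7.67, 7.45 and 10.39 in unstimulated arrays (1.65 ± 1.12, adjusted p = 0.294, and 0.00162 with the block), replicate 3 being the highest array of either group. Gzmk differed by 0.04 ± 0.46. Ifng had 5.76, 7.13 and 5.58 in transient arrays, against 5.21, 6.13 and 5.43 in unstimulated arrays (0.57 ± 0.62, adjusted p = 0.518).

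Inhibitory receptors rose in 4 of 9 and fell in 0 of 9: besides Ctla4 and Cd200 these were Lag3 (1.30 ± 0.29) and Cd160 (1.27 ± 0.34). Pdcd1, which encodes PD-1, had 6.72, 6.65 and 6.79 in transient arrays, against 5.80, 6.07 and 5.67 in unstimulated arrays (0.87 ± 0.41, adjusted p = 0.128, and 0.00851 with the block). Killer cell receptors were higher in 3 of 12, Klrc1, Klrk1 and Slamf7, the last with overlapping groups and without a call under the replicate block (adjusted p = 0.0645) or when any one array other than unstimulated replicate 1 was left out. Cytokines and chemokines were higher in 4 of 18, with Lta (1.35 ± 0.30) and Tgfb1 (1.16 ± 0.21) beside Ccl5 and Tnfsf8. Tnfsf8 (0.78 ± 0.25, adjusted p = 0.0324) was not called without unstimulated replicate 1 or 3, or without transient replicate 1 or 3. Effector and memory transcription factors were higher in 6 and lower in 3 of 23, and cytokine receptors higher in 7 and lower in 3 of 23. Reporters of recent receptor signals, which rise within hours of contact with antigen, were higher in 2 and lower in 1 of 21. Under the replicate block 2 were higher and 4 lower, where 1753 and 1303 of all 12393 genes were. The early response gene Egr1 had 11.19, 11.21 and 11.34 in transient arrays, against 11.12, 11.65 and 10.91 in unstimulated arrays (0.02 ± 0.38), and Nr4a1 changed by -0.88 ± 0.46 (adjusted p = 0.160, and 0.0145 with the block).

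The activation marker Il2ra was not called in CD8 cells, and for Cd44 the call depended on the probe set. Cd44 had 10.91, 10.29 and 11.03 in transient arrays, against 11.35, 9.54 and 9.55 in unstimulated arrays (0.60 ± 0.42, adjusted p = 0.306), the highest value being that of unstimulated replicate 1. Without that array the change was 1.20 (adjusted p = 0.00881), and without replicate 1 of both groups it was 1.12 (adjusted p = 0.0313). The second, dimmer Cd44 probe set was higher in transient cells by 2.01 ± 0.29 (adjusted p = 0.000143). Il2ra changed by 0.38 ± 0.39 (adjusted p = 0.496).

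Of 23 genes of quiescence and lymph node homing 4 were higher and 0 lower, against the background of 16.3% and 15.5%. All 4 of the higher ones were lower in CD4 cells, as were 55.0% of all genes higher in CD8 cells. With the replicate block 8 were higher and 2 lower, where 1753 and 1303 of all 12393 genes were. Klf2, a factor that maintains quiescence, had 11.91, 11.98 and 11.92 in transient arrays, against 10.50, 10.86 and 11.00 in unstimulated arrays (1.15 ± 0.18, adjusted p = 0.000332). S1pr1, its target that lets cells leave lymphoid organs, had 10.14, 9.82 and 10.28 in transient arrays, against 8.34, 8.86 and 8.95 in unstimulated arrays (1.36 ± 0.23, adjusted p = 0.000574). The CD4 changes of Klf2 and S1pr1 were -1.84 and -2.51, and with the covariate their CD8 changes were 0.63 and -0.21, neither called. Il7r changed by 0.11 ± 0.69 and Ccr7 by -0.18 ± 0.29.

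Receptor complex and proximal kinase genes were higher in 11 of 17 and lower in 0, among them Zap70 (2.15 ± 0.21), the adaptor Lcp2 (1.65 ± 0.16), Thy1 (1.63 ± 0.30) and Cd3g (0.96 ± 0.11). Of these 11, 8 were called lower in CD4 cells and 1, Cd8a, higher, where 55.0% and 3.17% of all genes higher in CD8 cells were. The median change of the list was 0.82 in CD8 cells and -0.77 in CD4 cells. One further Zap70 probe set changed by -0.15. Among chemokine receptors and integrins 6 of 19 were higher and 2 lower, with the integrin chains Itgb1 (1.93 ± 0.29) and Itgb7 (1.47 ± 0.18) beside Cxcr3. S100, annexin and galectin genes, which include many membrane-bound calcium binders, were higher in 9 of 16 and lower in 0, with Anxa6 (2.71 ± 0.27), Ahnak (2.71 ± 0.39), Anxa5 (2.24 ± 0.20) and S100a13 (1.74 ± 0.17) beside S100a6 and Anxa2. The other 2 probe sets of Anxa2 changed by 0.28 and -0.11, and the other 3 of Ahnak by 0.51, -0.05 and 0.55, of which 0.51 was called. Of these 9, 3 were higher in CD4 cells and 2 lower.

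Metabolic lists moved in both directions. Glycolysis genes were higher in 8 of 12, among them the pyruvate kinase gene Pkm (1.68 ± 0.27) and the lactate dehydrogenase gene Ldha (1.10 ± 0.10). Of these 8, 5 were lower in CD4 cells, near the share of 55.0% among all genes higher in CD8 cells. The 2 lower ones included the glucose transporter Slc2a1 (-1.03 ± 0.14), of which another probe set rose by 0.94. Respiratory chain subunits were higher in 8 and lower in 1 of 21, with 5 of the 8 lower in CD4 cells, again near 55.0%. With the replicate block 4 were higher and 0 lower, where 1753 and 1303 of all 12393 genes were. Amino acid and one-carbon genes were higher in 2 and lower in 5 of 13. Sterol synthesis genes were higher in 3 and lower in 3 of 14, ribosome biogenesis genes higher in 4 and lower in 4 of 16, unfolded protein response genes higher in 3 and lower in 2 of 15, BCL2 family genes higher in 4 and lower in 1 of 11, and interferon-induced genes higher in 5 and lower in 3 of 24.

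Of 33 DNA replication and cell cycle genes 4 were higher and 3 lower, both shares below the background of the fit without a block. Pcna, the clamp of the replication fork (0.86 ± 0.14), and Ezh2, a histone methyltransferase of dividing cells (1.34 ± 0.28), were higher, whereas Cdc20, an activator of the anaphase-promoting complex (-1.10 ± 0.27), and the helicase subunit Mcm7 (-0.75 ± 0.15) were lower. The other 2 Cdc20 probe sets changed by 0.10 and -0.19, neither called, and with the mean of its probe sets Cdc20 was not called. Mki67 had 10.21, 9.51 and 9.70 in transient arrays, against 9.78, 7.23 and 8.45 in unstimulated arrays (1.32 ± 0.49, adjusted p = 0.0572, and 0.0239 with the block), and without unstimulated replicate 1 the change was 1.97 (adjusted p = 0.00277). With the replicate block 11 genes of the list were called higher and 3 lower, where 1753 and 1303 of all 12393 genes were. In that fit the share of rises lay above the background. Without unstimulated replicate 1 likewise 11 were called higher (1816 of all genes), while 7 were called lower without unstimulated replicate 2 (1536 of all genes). Of 10 cell cycle inhibitors 3 were higher and 1 lower, with Rbl2, a member of the retinoblastoma family (2.41 ± 0.19), and Cdkn1b (1.07 ± 0.21) among the higher ones.

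**Figure D4:**
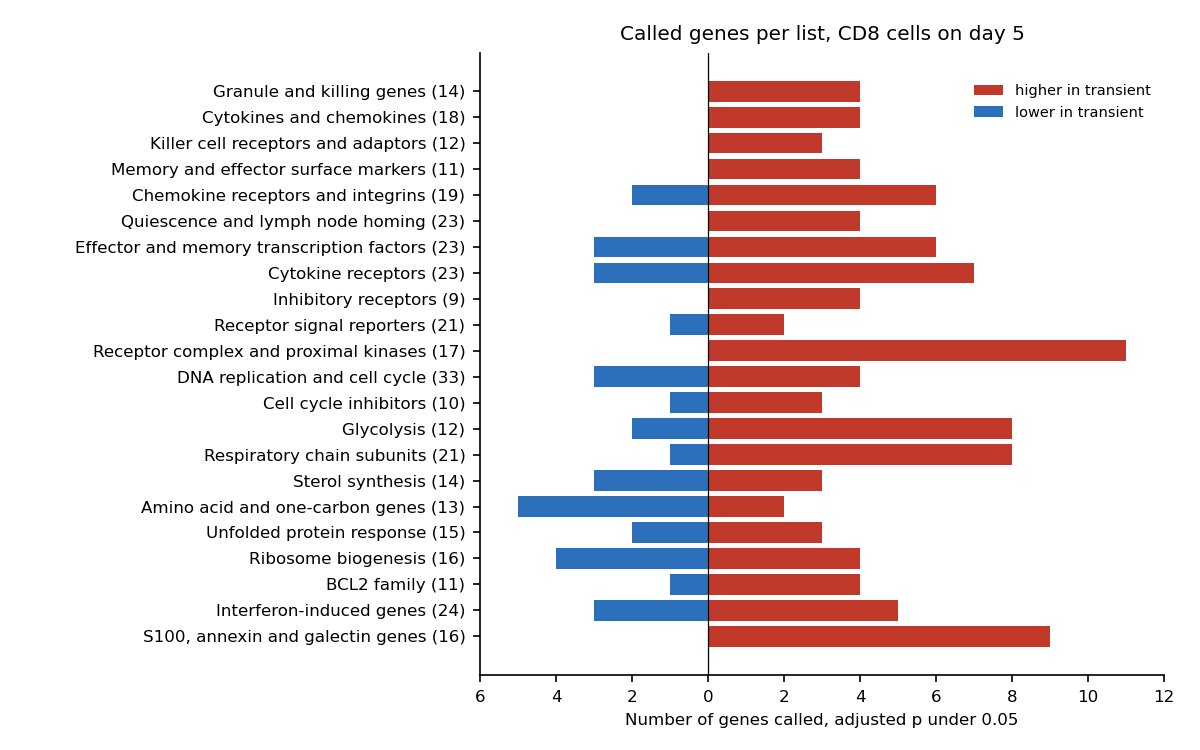
Number of genes called higher (red, to the right) or lower (blue, to the left) in transient than in unstimulated CD8 cells for 22 lists, with the number of genes measured in brackets. Receptor complex genes, with 11 of 17, have the longest bar to the right, and amino acid and one-carbon genes, with 5 of 13, the longest to the left.

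Tested directly, the change in CD8 cells exceeded that in CD4 cells for 2298 genes (18.5%) and was below it for 2344 (18.9%). The 10 largest positive differences were all of genes higher in CD8 and lower in CD4 cells, led by Psmb7 (7.88 ± 0.27), Psmc5 (6.10 ± 0.36) and the phosphohistidine phosphatase Phpt1 (5.93 ± 0.27). Of the 10 largest negative differences 8 were of genes called higher in CD4 cells, the exceptions being Ccr9 and Iglv1, and among the 8 were the B cell genes Ms4a1 (-7.02 ± 1.78) and Cd79b (-5.77 ± 0.83). The mean of 9 B cell markers was 8.99 and 7.62 in the CD4 transient arrays, against 5.82 and 5.08 in the CD4 unstimulated arrays.

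Continuously stimulated CD8 cells shared the first 2 days of treatment and then met their antigen for 3 days. This comparison uses the same transient arrays, so its values are set side by side. The beta-actin difference was between 0.31 and 0.56 in continuous arrays and between 0.66 and 1.02 in transient arrays. For Gapdh it was between 1.29 and 1.57 in continuous arrays and between 1.83 and 2.00 in transient arrays. Neither measure overlapped between these groups, and their part in this comparison was not tested. Compared with transient cells, continuous cells had 1686 genes higher (13.6%) and 1690 lower (13.6%). Of the genes that set transient cells apart from unstimulated ones, the continuous means were 9.69 for Plscr1, 10.45 for Ctla4, 11.16 for Tbx21, 9.07 for Klrc1, 8.45 for Klrk1 and 4.63 for Ccr9. None of these 6 was called between continuous and transient cells. Eomes did differ, with 11.13 in continuous cells, 2.08 above the transient mean (adjusted p = 0.000158). Granzyme, cytokine and receptor genes were higher in continuous cells: Gzmb by 4.13, Gzmk by 4.88, Ifng by 4.52, Pdcd1 by 2.53 and Il2ra by 2.20, each called (adjusted p = 0.000630, 1.88e-05, 0.000160, 0.000558 and 0.000991 by limma). The continuous arrays differed among themselves in Gzmb, with 13.10, 13.35 and 9.92. Il7r was lower by -3.66 (adjusted p = 0.00146) and S1pr1 by -1.42 (adjusted p = 0.000567).

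The day 2 arrays show which of these differences were present when the antibodies were removed. Stimulated CD8 cells had 928 genes higher (7.49%) and 107 lower (0.863%) than unstimulated cells on day 2. The beta-actin difference was between 1.38 and 1.69 in stimulated and between 2.28 and 4.27 in unstimulated arrays of that day, and its part was not tested. Of the 928, 241 (26.0%) were also higher on day 5, against a background of 16.3%, and 133 (14.3%) were lower, against 15.5%. The 241 are 11.9% of the day 5 rises. The correlation of the day 2 and day 5 changes across 12393 genes was 0.18 (Pearson, a description across genes; the 2 days share no arrays). The third unstimulated CD8 array of day 2 had a median of 4.97, and without it and the third unstimulated CD4 array 2040 genes were higher and 2651 lower on day 2, so the small number of falls above rests on those arrays. Of the 2040, 542 (26.6%) were higher on day 5, and of the 2651, 472 (17.8%) were lower on day 5.

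Single genes followed different courses. Unless stated, their day 2 values include the third unstimulated CD8 array of that day, which had a median of 4.97. Plscr1 and Ctla4 were 7.11 and 5.10 log2 units higher on day 2 (adjusted p = 2.46e-05 and 5.81e-05) and 4.63 and 3.94 higher on day 5, and Tbx21 was 4.46 higher on day 2 (adjusted p = 0.000274). Gzmb and Ifng were 7.53 and 5.99 higher on day 2 (adjusted p = 0.000364 and 0.00241) and not called on day 5. Il2ra, higher by 5.29 on day 2, was not called on day 5 either. Cd44 was higher by 5.12 on day 2, and on day 5 1 of its 2 probe sets was called higher. Klf2 was lower by -5.62 on day 2 (adjusted p = 3.21e-05) and S1pr1 by -2.53 (adjusted p = 0.0104), and both were higher on day 5. Ccr9 was lower by -3.80 on day 2 (adjusted p = 0.0977), and by -5.79 (adjusted p = 0.000115) without the third unstimulated arrays. On day 2 Ctla2b, S100a6 and Cxcr3 differed by -0.19, 0.01 and 0.52, none of them called in the fit that includes the third unstimulated arrays. Ccl5 was lower by -3.62 on day 2 (adjusted p = 0.0418) and higher on day 5.

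**Figure D5:**
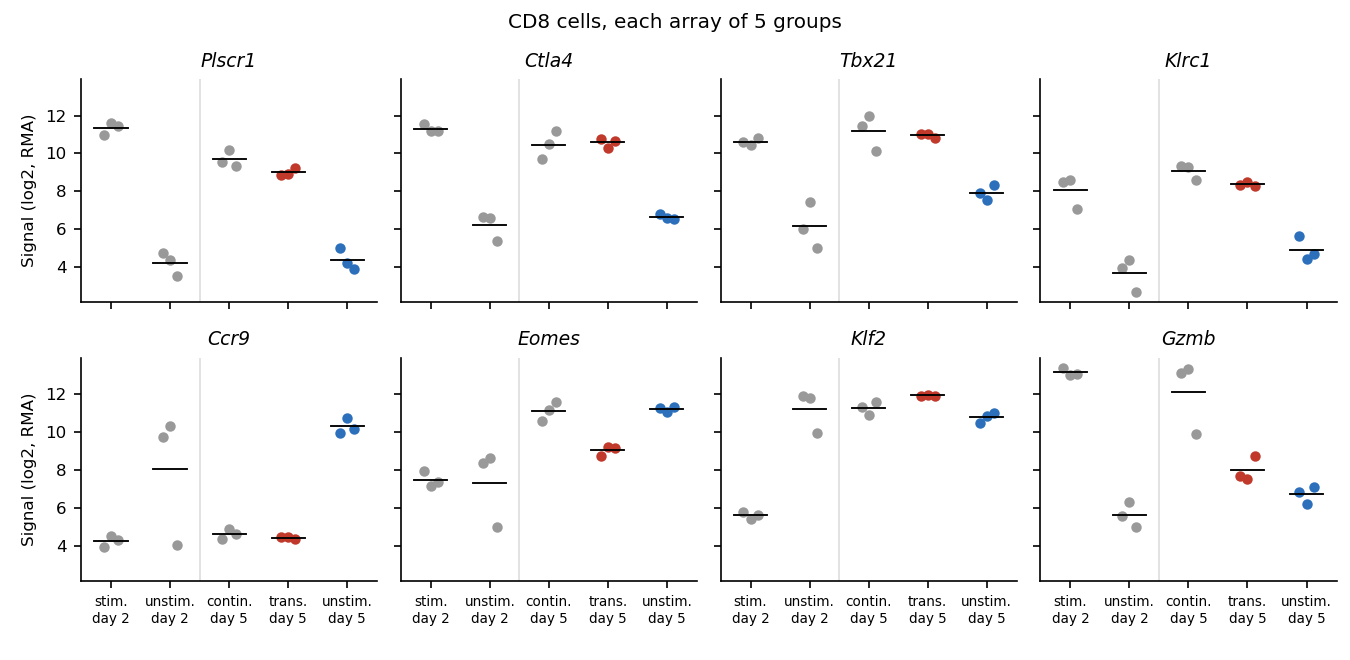
Signal (log2) of 8 genes in each CD8 array of 5 groups, day 2 left and day 5 right of the grey line, with group means as bars. Transient (red) and unstimulated (blue) arrays of day 5 are coloured. In transient arrays Plscr1, Ctla4, Tbx21 and Klrc1 lie above all unstimulated arrays of day 5, Ccr9 lies below them, and Gzmb has a mean well below that of the day 2 stimulated arrays.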

How the data were processed

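The 28 arrays are Affymetrix Mouse 430A2 expression arrays of sorted T cells. The deposited values are log2 signals per probe set, normalised by the authors with RMA per the submitters' processing notes; the version is not given in the sources used here. Groups were taken from sample titles. Where a gene had several probe sets, the one with the largest average signal across the series stood for it, giving 12393 genes. Changes were fitted with limma 3.58.1 in R 4.3.3 over the 16 day 5 arrays with 1 mean per group, and p values were adjusted by Benjamini-Hochberg over all genes with a threshold of 0.05; day 2 arrays were fitted on their own. The CD8 minus CD4 difference is a contrast in the same fit. Same-numbered CD8 arrays deviated together (correlations 0.50, 0.36 and 0.15, all over 0.1), so a fit with the replicate number as a block was made beside it. The 0.50 is that of replicate 1, which carried genes of other blood cells. Transient replicate 2 with unstimulated replicate 3 gave 0.14, near the 0.15 of replicate 3, and the other differently numbered pairs were negative. Named genes were the 15 largest rises and falls without overlap between groups, the 10 largest CD8 minus CD4 differences in each direction, and members of the lists. The members and lists were chosen with earlier results of these data known. The code was tested on simulated data. Promoters are from RefSeq (GRCm38.p6). The number of arrays limits the precision.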

Additional observations from a re-analysis of the deposited data

Results flagged for a closer look

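The transient change differed between CD8 and CD4 cells, by a test of the difference itself, for many genes: it was higher in CD8 cells for 2298 and lower for 2344. The largest positive differences (log2) were those of Psmb7 (7.88), Psmc5 (6.10), Phpt1 (5.93), Plekhj1 (5.59), Nfx1 (5.57), Cwc15 (5.41), Anxa6 (5.14), Lgals9 (5.10), Eif4ebp2 (5.05) and Shoc2 (5.01), each higher in CD8 cells and lower in CD4 cells by the probe set used; the second Shoc2 probe set was lower in CD8 cells (-0.47, adjusted p = 0.0364 by limma). The largest negative ones were those of Ly6d (-7.77), Iglv1 (-7.49), Ms4a1 (-7.02), Ly86 (-6.59), Ccr9 (-6.31), Scd1 (-5.90), Cd79b (-5.77), Ighv14-2 (-5.40), Cd300lf (-5.37) and Ccr1 (-5.25). The beta-actin 3' minus 5' difference moved in opposite directions in the 2 cell types, B cell markers were higher in both CD4 transient arrays, and CD4 transient replicate 2 had a myeloid marker mean of 9.25; their part in these differences was not tested.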

How the results depend on the processing

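Quality of the RNA is confounded with the groups, 1 array of each CD8 group carries myeloid and B cell genes, and 3 arrays a group limit the precision. Genes called higher and lower in CD8 cells, then higher and lower in the CD8 minus CD4 difference, numbered 3261, 2904, 3870 and 3559 over all probe sets, 179, 60, 341 and 184 with all 28 arrays in one fit, 108, 48, 10 and 1 with the beta-actin covariate and 0, 0, 0 and 0 with the Gapdh covariate. The Gapdh covariate was chosen after seeing the data; under it 1480 genes had an unadjusted p under 0.05 for the CD8 change and the median standard error was 0.64. At 2-fold or more the CD8 counts were 707 and 353 and the difference was lower for 1166; at an adjusted p under 0.01 the lower counts were 1011 and 1312. Genes called the same way in both cell types numbered 4 with 28 arrays, 0 with either covariate, 57 at 0.01 and 37 at 2-fold, and opposite ways 2781 over all probe sets, 36, 3 (beta-actin), 0 (Gapdh), 963 and 452. The day 2 rises also higher on day 5 numbered 542 without the third unstimulated arrays of day 2 and 44 at 0.01. The median change of all genes was -0.023 without the lowest 30% of genes and -0.00066 with the Gapdh covariate. Leaving out 1 array at a time, or replicate 1 of both CD8 groups, gave 1566 to 1844 genes higher and 1321 to 1854 lower in CD8 cells, a median of -0.0975 to -0.0652, a difference higher for 1980 to 2269 and lower for 1676 to 2380, 69 to 148 genes called the same way, 1123 to 1644 opposite ways and 202 to 252 day 2 rises. Under the beta-actin covariate the CD8 change turned sign for Trat1 (0.025), Il18rap (-0.071), S1pr1 (-0.21) and Lef1 (-0.18), and the difference for Ly6d (1.01), Iglv1 (3.37) and Gata3 (-0.63); the cause was not tested. The replicate block gave 1753 higher and 1303 lower and changed the CD8 call of no named gene other than those given in the report and Ly86 (adjusted p = 0.0349 with the block, 0.294 without).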
